A study of Mus musculus with 13 samples.

Results

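The 9 genes described here take up, store and export iron in mammalian cells: *Tfrc*, *Tfr2*, *Slc11a2*, *Steap3*, *Fth1*, *Ftl1*, *Slc40a1*, *Ireb2* and *Aco1*. They were chosen by name, with earlier results of these data known, and all 9 were found among the 27111 named genes of the table. Expression was measured by RNA sequencing in Sertoli cells, the somatic cells that nurse the germ cells, enriched by cell sorting from the testis of adult wild-type C57Bl/6J males. The samples came from 6 control males and from 7 males exposed to MSUS, an early life stress that combines maternal separation with stress of the mother, both unpredictable. MSUS pups lost their mother for 3 h a day between postnatal days 1 and 14, while the mother was made to swim for 5 min at 18 °C or was restrained for 20 min. Each library was made from 1 male, so p-values measure the spread between males, and whether males shared a litter was not taken into account. The sort kept diploid, large cells with a strong MitoTracker signal, a dye of mitochondria, so the mitochondrial content of the cells was part of their selection.

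Most cells take up iron as transferrin, which binds the transferrin receptor and is carried into endosomes. There the iron is released, reduced by *Steap3* and moved to the cytosol by the transporter DMT1 (*Slc11a2*). In the cytosol, iron is used by mitochondria for heme and iron-sulfur clusters, is stored in ferritin, a shell of heavy (*Fth1*) and light (*Ftl1*) chains, or leaves the cell through ferroportin (*Slc40a1*). Iron regulatory proteins (*Aco1* and *Ireb2*) bind hairpins called iron-responsive elements (IREs) when iron is scarce. Bound at the 5' end of an mRNA they block its translation, and bound in the 3' UTR of *Tfrc* they protect the mRNA from decay. In the testis, iron passes the barrier formed by Sertoli cells on its way to the germ cells.

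The hairpins through which the regulatory proteins act were looked for in the transcripts of the members, because they divide the members into mRNAs controlled at translation and mRNAs controlled at stability. The motif was a C, any 5 bases, the loop CAGTGN with N other than G, and any 5 bases, with at least 4 of the 5 flanking pairs able to form (G-T pairs allowed), read on the transcript strand of GENCODE vM21. It was found in 5 of the 9 members, at 8 sites, and the capitals mark the loop.
*Fth1*, 5' UTR, chr19:9982732-9982760, plus strand: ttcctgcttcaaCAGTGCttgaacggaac
*Ftl1*, 5' UTR, chr7:45459779-45459807, minus strand: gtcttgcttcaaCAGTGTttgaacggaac
*Slc40a1*, 5' UTR, chr1:45925465-45925493, minus strand: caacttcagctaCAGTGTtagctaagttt
*Slc11a2*, 3' UTR, chr15:100395153-100395181, minus strand: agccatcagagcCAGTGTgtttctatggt
*Tfrc*, 3' UTR, chr16:32631219-32631247, plus strand: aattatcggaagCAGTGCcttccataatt
*Tfrc*, 3' UTR, chr16:32631598-32631626, plus strand: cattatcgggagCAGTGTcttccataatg
*Tfrc*, 3' UTR, chr16:32631663-32631691, plus strand: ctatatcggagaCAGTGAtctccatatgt
*Tfrc*, 3' UTR, chr16:32631710-32631738, plus strand: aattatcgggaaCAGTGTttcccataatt
Coordinates are of build GRCm38. The site of *Slc11a2* has 4 pairs and the other 7 sites have 5. Among all genes with an annotated 5' UTR, 0.102% hold such a site with 5 pairs, and among those with a 3' UTR, 0.468% do, or 3.12% with at least 4 pairs. For *Slc11a2*, *Ftl1* and *Tfrc*, sites were found in 1 of the 2 coding transcripts of the gene. The site of *Fth1* was found in all 3 of its coding transcripts, and *Slc40a1* has only 1. Counts per gene do not separate the transcripts with and without a site. A match describes these letters, and binding was not measured.

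Depth was 13087108 to 18649819 estimated counts per library in controls and 12701664 to 15693836 in MSUS, of which 9937178 to 14383367 and 9776853 to 11876822 fell on named genes. The Sertoli markers (*Amhr2*, *Clu*, *Ctsl*, *Rhox5* and *Sox9*) had a mean level of 10.18 ± 0.10 log2 CPM (counts scaled to library size; SD, n = 6) in controls and 10.15 ± 0.09 (SD, n = 7) in MSUS, as the cell type of the label requires. The most abundant other marker list was that of elongated spermatids, which summed to 846 to 1375 CPM in controls and to 728 to 1772 CPM in MSUS, with mean levels of 7.90 ± 0.23 and 8.09 ± 0.46 log2 CPM. Macrophages and red cell precursors, which handle much iron, were looked for by their own markers. The 4 macrophage markers summed to 7.95 to 12.5 CPM in controls and to 7.86 to 12.95 CPM in MSUS. Of the 8 markers of iron-recycling macrophages, *Lyz2* was at 0 in all 13 libraries, *C1qa* had at most 1 count, *Marco* at most 2 and *Csf1r* at most 5. *Spic* had 1 to 13 counts per library, *Cd163* 1 to 18, *Vcam1* 24 to 73 and *Hmox1* 598 to 1059. The summed level of the 8 markers was 69.2 to 92.9 CPM in controls and 65.7 to 85.9 CPM in MSUS, almost all of it *Hmox1*. Their mean level, in which each marker weighs the same, was -0.18 ± 0.10 log2 CPM (SD, n = 6) in controls. In MSUS it was lower, at -0.44 ± 0.22 (SD, n = 7), and this difference was not tested. Of the red cell list, 7 of 8 genes were found, the globins *Hba-a1* and *Hbb-bt* were at 0 in all 13 libraries, and the sum of 222 to 264 CPM in controls and 169 to 264 CPM in MSUS was nearly all *Alas2*. In these bulk samples, fewer cells of a type and less RNA per cell cannot be told apart.

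All 9 genes passed the filter on low counts, and their order by level was led by the ferritin chains. Levels between genes are given as log2 CPM per kb of exon, as the mean of controls (n = 6). *Ftl1* stood at 7.95 ± 0.22 and *Fth1* at 7.29 ± 0.13 (SD). The regulatory proteins and DMT1 followed close together, with *Ireb2* at 4.82 ± 0.06, *Slc11a2* at 4.56 ± 0.07 and *Aco1* at 4.49 ± 0.09. *Tfrc* reached 2.59 ± 0.17 and *Slc40a1* 1.18 ± 0.16. *Tfr2* (-0.05 ± 0.34) and *Steap3* (-1.62 ± 0.88) were the lowest. Over the 13 samples the ranges of neighbours overlapped for *Ireb2* and *Slc11a2*, for *Slc11a2* and *Aco1*, for *Slc40a1* and *Tfr2*, and for *Tfr2* and *Steap3*, whereas those of the ferritin chains, *Aco1*, *Tfrc* and *Slc40a1* were separate from each other. *Slc11a2* lay above *Aco1* in 8 of 13 samples, so these neighbours did not differ beyond their spread. The order of the ferritin chains depends on the length used for *Fth1*: with the first listed transcript, *Fth1* stood at 8.04 and *Ftl1* at 7.95, and *Fth1* was higher in 11 of 13 samples. *Slc11a2* likewise moved above *Ireb2*, to 5.48 against 4.82.

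**Figure D1:**
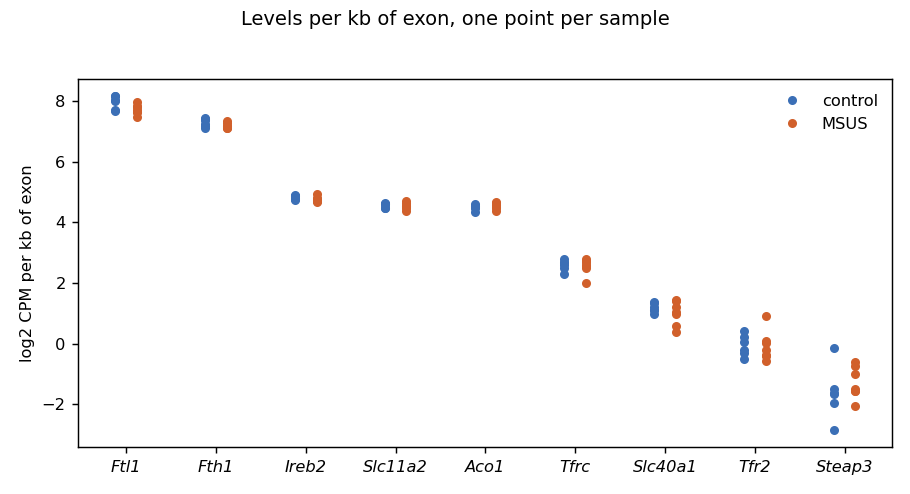
Level of each gene in log2 CPM per kb of exon (y axis) for the 9 genes (x axis), with 1 point per sample in the 6 controls and 7 MSUS males. Control means run from 7.95 for *Ftl1* to -1.62 for *Steap3*, and the points of both groups overlap for every gene.

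The first comparison asked whether early life stress left a difference in the iron genes of adult Sertoli cells. Between MSUS and control, none of the 9 genes and none of the 14421 genes tested (0%) passed the adjusted test (limma voom), and the smallest adjusted p was 0.878. edgeR and DESeq2 also called 0 genes. At an unadjusted p under 0.05, 1 of the 9 genes (*Ftl1*) was lower in MSUS. This has to be read against 5.42% of all genes (781 by limma, 793 by edgeR and 835 by DESeq2), and 2.4% in the lower direction. Of the 9 estimates, 7 were below 0 and 2 above, and their median was -0.04 on the log2 scale, beside -0.0017 over all genes. In the text below, levels are log2 CPM and differences are MSUS minus control on the log2 scale, with limma's SE and 95% confidence interval and p adjusted over all genes.

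**Figure D2:**
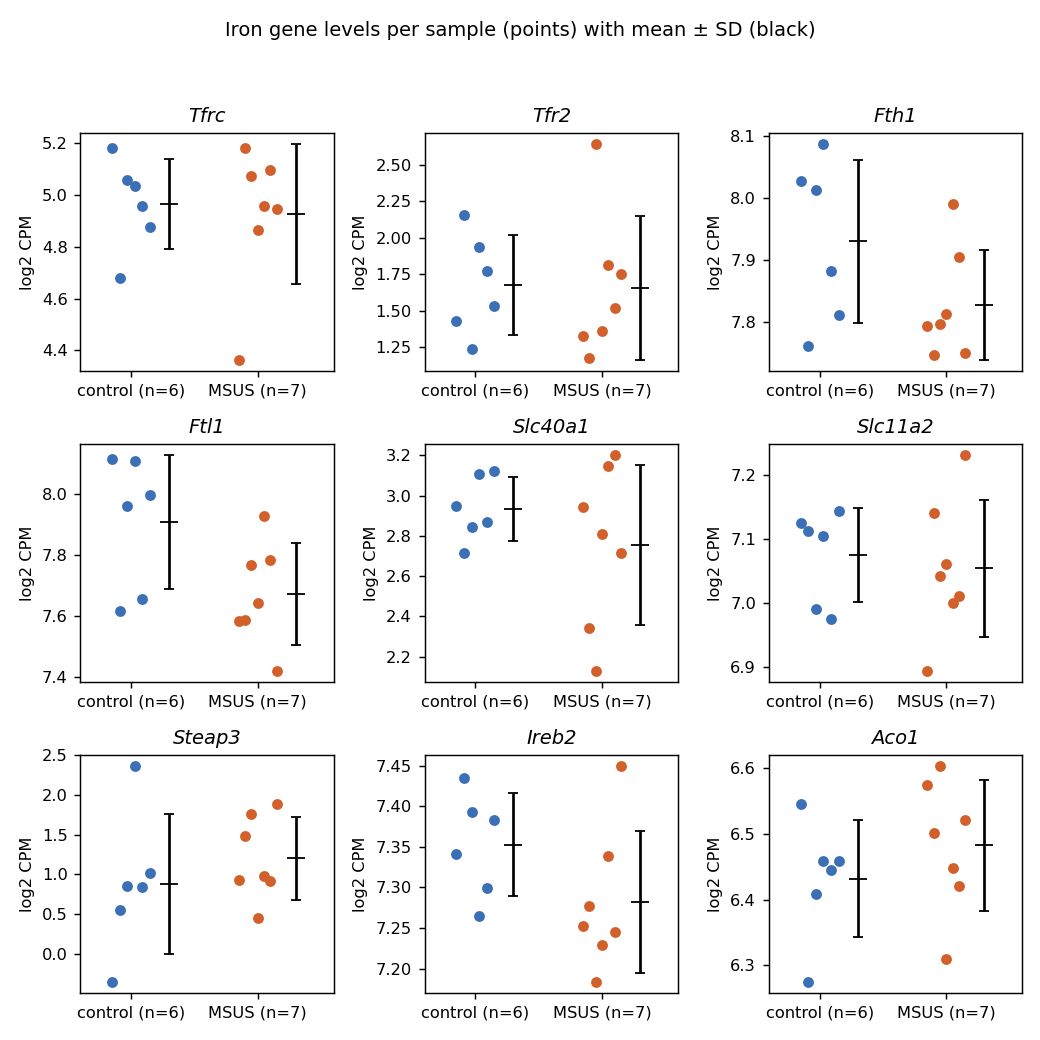
Level of each of the 9 genes in log2 CPM (y axis of each panel, each with its own scale) in control (n = 6) and MSUS (n = 7) samples, with 1 point per male and the mean ± SD in black. The groups overlap in every panel, and 3 MSUS samples of *Ftl1* and 4 of *Ireb2* lie below the lowest control.

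The genes of uptake had nearly the same mean in both groups, apart from the sparsely counted *Steap3*. *Tfrc* (chr16:32608920-32632794), the receptor that brings in transferrin, had a lowest, median and highest level of 4.68, 5.00 and 5.18 in controls and of 4.36, 4.96 and 5.18 in MSUS. The means were 4.96 ± 0.17 (SD, n = 6) and 4.93 ± 0.27 (SD, n = 7), and limma gave a difference of -0.04 (SE 0.12, interval -0.29 to 0.22, adjusted p = 0.974). The groups covered the same range apart from 1 low MSUS sample, replicate 1, without which the difference was 0.06. *Slc11a2* (chr15:100387898-100425072), which carries iron out of the endosome, had the smallest SD of the uptake genes, with 6.97, 7.11 and 7.14 in controls and 6.89, 7.04 and 7.23 in MSUS. Its difference was -0.02 (SE 0.06, interval -0.15 to 0.11, limma adjusted p = 0.972). Of the 7 MSUS samples, 1 lay below and 1 above all controls.

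*Tfr2* (chr5:137569840-137587481), a second transferrin receptor known as an iron sensor of the liver and of red cell precursors, was found at 23 to 68 counts per library. Its lowest, median and highest levels were 1.24, 1.65 and 2.16 in controls and 1.17, 1.52 and 2.64 in MSUS, and the difference of -0.03 (SE 0.25, interval -0.56 to 0.51, limma adjusted p = 0.987) was far smaller than its error. *Steap3* (chr1:120190757-120272705), the endosomal reductase, had only 7 to 49 counts per library. Its lowest, median and highest levels were -0.36, 0.85 and 2.36 in controls, and 0.46, 0.99 and 1.89 in MSUS. Its difference was 0.42, with the largest SE of the 9 (SE 0.38, interval -0.37 to 1.21, limma adjusted p = 0.899). It was 0.18 without control 9, 0.69 without control 14, 0.21 by edgeR and 0.20 by DESeq2. All 7 MSUS samples lay within the range of the controls, which ran from control 9 to control 14, and no difference in *Steap3* was detected. The parts of depth and of the spread between males in this were not tested.

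Ferritin gave the lowest unadjusted p of the 9 genes. *Ftl1* (chr7:45457944-45459884), the light chain that helps to lay down the iron core, had a lowest, median and highest level of 7.62, 7.98 and 8.11 in controls and of 7.42, 7.64 and 7.93 in MSUS. Of the 7 MSUS samples, 6 lay below the control mean and 3 below the lowest control. The means were 7.91 ± 0.22 (SD, n = 6) and 7.67 ± 0.17 (SD, n = 7), and the difference was -0.23 (SE 0.09, interval -0.43 to -0.03), with an unadjusted limma p of 0.0247 and an adjusted p of 0.878. The unadjusted p moved over 0.05 when single males were left out, and was 0.0725 without control 9, 0.0646 without control 14 and 0.0569 without MSUS 26. With the *Malat1* level as covariate the difference was -0.05, and with the mitochondrial mRNA share as covariate -0.13. The counts of *Ftl1* were not whole numbers in 13 of 13 samples (tolerance 0.005), and the same was true of *Slc11a2*. For *Fth1* this was so in 1 of 13 samples. Salmon can give such counts where reads match more than 1 transcript, and which transcripts shared them was not examined. Copies of the ferritin genes that resemble them closely are known, so the levels of *Ftl1* and *Fth1* are uncertain in this respect.

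*Fth1* (chr19:9980598-9985098), the heavy chain that oxidizes iron on its entry, was less different. Its lowest, median and highest levels were 7.76, 7.95 and 8.09 in controls and 7.75, 7.80 and 7.99 in MSUS, and 6 of 7 MSUS samples lay below the control mean. The difference was -0.10 (SE 0.06, interval -0.23 to 0.03, limma adjusted p = 0.878). The chains varied together, with a Pearson r of 0.84 over the 13 samples, the highest of all pairs of the 9 genes. The balance between them, *Fth1* minus *Ftl1*, was 0.02 ± 0.15 (SD, n = 6) in controls and 0.15 ± 0.10 (SD, n = 7) in MSUS. It lay above the control mean in 7 of 7 MSUS samples, and an exact permutation test, two-sided, gave p = 0.0874, or 0.213 after adjustment over the 3 differences between members that were examined.

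Ferroportin, the known iron exporter of mammalian cells, was expressed at 47 to 97 counts per library. *Slc40a1* (chr1:45908068-45926523) had a lowest, median and highest level of 2.72, 2.91 and 3.12 in controls and of 2.13, 2.81 and 3.20 in MSUS. The MSUS samples were more spread than the controls (SD 0.40 against 0.16), with 3 below the lowest control and 2 above the highest. The difference was -0.18 (SE 0.18, interval -0.54 to 0.19, limma adjusted p = 0.913), and -0.07 without MSUS 6. It turned to 0.08 with the mitochondrial mRNA share as covariate and to 0.10 with the *Malat1* level.

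The regulatory proteins that sense iron were among the steadiest genes of the set. *Ireb2* (chr9:54863789-54912530), encoding IRP2, which is degraded when iron is plentiful, had 7.26, 7.36 and 7.43 in controls and 7.18, 7.25 and 7.45 in MSUS. Although 4 of 7 MSUS samples lay below the lowest control, the difference was small, at -0.07 (SE 0.05, interval -0.19 to 0.04, limma adjusted p = 0.890). *Aco1* (chr4:40143081-40198338), encoding IRP1, which is a cytosolic aconitase when it holds an iron-sulfur cluster, had 6.27, 6.45 and 6.55 in controls and 6.31, 6.50 and 6.60 in MSUS. Its difference was 0.05 (SE 0.06, interval -0.08 to 0.19, limma adjusted p = 0.925), with 0.02 without control 10 and 0.08 without MSUS 11. The balance *Aco1* minus *Ireb2* was -0.92 ± 0.14 (SD, n = 6) in controls and -0.80 ± 0.13 (SD, n = 7) in MSUS (exact permutation test, two-sided, p = 0.142, adjusted p = 0.213), and it lay above the control mean in 6 of 7 MSUS samples.

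When iron is scarce, *Tfrc* mRNA is known to be kept and ferritin translation to be blocked, so the level of *Tfrc* was also set against that of ferritin. *Tfrc* minus the mean of *Fth1* and *Ftl1* was -2.95 ± 0.10 (SD, n = 6) in controls and -2.82 ± 0.27 (SD, n = 7) in MSUS. The exact permutation test, two-sided, gave p = 0.301, also 0.301 after adjustment, and the smallest p this design allows is 0.000583. The MSUS samples lay on both sides of the controls, from -3.32 to -2.49. Ferritin protein, which carries most of this regulation, was not measured here.

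**Figure D3:**
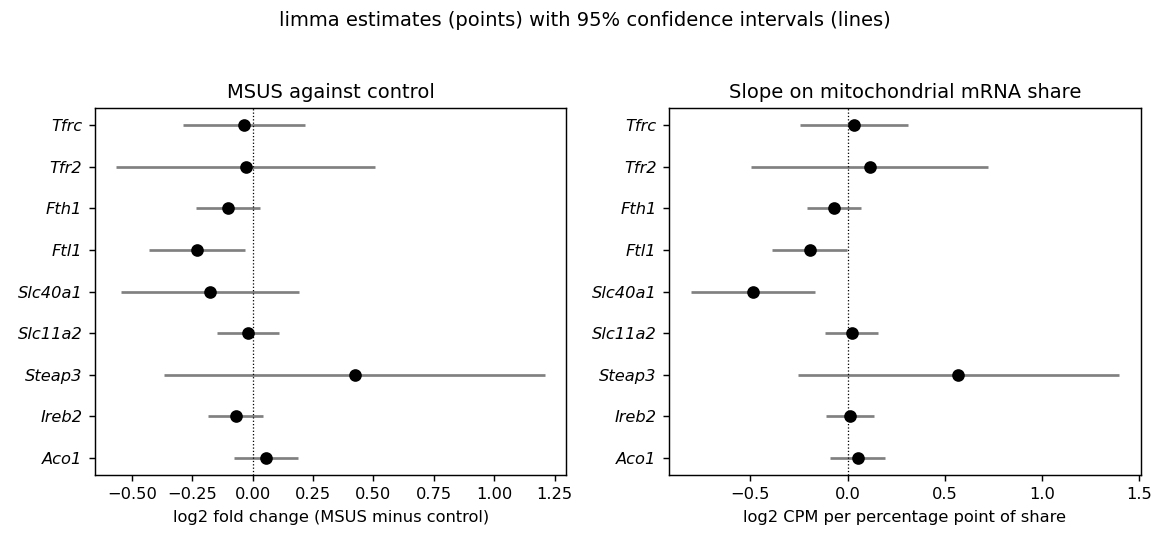
limma estimates (points) and 95% confidence intervals (lines) for the 9 genes on the y axis, with the MSUS minus control difference on the log2 scale in one panel and the slope on the mitochondrial mRNA share, in log2 units per percentage point, in the other. The interval of the difference lies off 0 for *Ftl1*, from -0.43 to -0.03, and the interval of the slope for *Ftl1* and *Slc40a1*.

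The second comparison related the iron genes to the mitochondrial mRNA share, the percentage of named counts that fall on the 13 protein-coding genes of mitochondrial DNA. Mitochondria use most of the iron of a cell. The share lay between 1.26% and 2.48% in controls and between 1.80% and 3.16% in MSUS, with means of 1.98 ± 0.42% (SD, n = 6) and 2.48 ± 0.57% (SD, n = 7), and an exact permutation test, two-sided, gave p = 0.111. In a limma fit with the share and the group, none of the 9 genes passed the adjusted test. Over all genes 8 did (0.0555%), and these 8 are themselves encoded in mitochondrial DNA and part of the share. At an unadjusted p under 0.05, 2 of the 9 genes (*Slc40a1* and *Ftl1*) were lower with a larger share, beside 9.42% of all genes in either direction and 4.37% in the lower direction.

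*Slc40a1* had the steepest relation with an interval off 0. Its slope was -0.49 log2 units per percentage point of share (SE 0.15, interval -0.81 to -0.17), with an unadjusted limma p of 0.00523 and an adjusted p of 0.408. The 4 MSUS samples with the largest shares were replicates 5 (3.16%), 6 (2.99%), 26 (2.91%) and 1 (2.58%), and *Slc40a1* stood there at 2.34, 2.13, 2.71 and 2.94. The 2 MSUS samples with the smallest shares, replicates 23 (1.80%) and 13 (1.84%), had the highest levels of all, at 3.20 and 3.15. Over the 13 samples Pearson's r was -0.82 (permutation p = 0.00028, adjusted over all genes 0.110) and Spearman's rho -0.87 (permutation p = 0.00026, adjusted 0.147). Without the 2 samples farthest from the median share, MSUS 5 and control 24, r was -0.78.

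The relation of *Slc40a1* had the same direction within each group. Among the 6 controls r was -0.75 (exact permutation p = 0.0806) and rho -0.89 (exact p = 0.0333), and among the 7 MSUS samples r was -0.86 (exact permutation p = 0.0147) and rho -0.93 (exact p = 0.00675). Of the 14421 genes, 64 (0.444%) had a larger r in size and 29 a more negative one, while an unadjusted p under 0.05 for Pearson's r was reached by 13.7% of all genes. The share itself followed the level of *Malat1*, an abundant nuclear RNA, with r = 0.83 (permutation p = 0.00054, adjusted over 3 library measures 0.00162) and rho = 0.77 (permutation p = 0.00305, adjusted 0.00915), and r = 0.66 without MSUS 5 and control 24. *Malat1* lay between 9.15 and 10.68 log2 CPM in controls and between 10.16 and 11.28 in MSUS. With the *Malat1* level in the fit, the slope of *Slc40a1* stayed at -0.50 and its unadjusted limma p was 0.0621. The part of the macrophage markers given above in the slope was not tested.

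**Figure D4:**
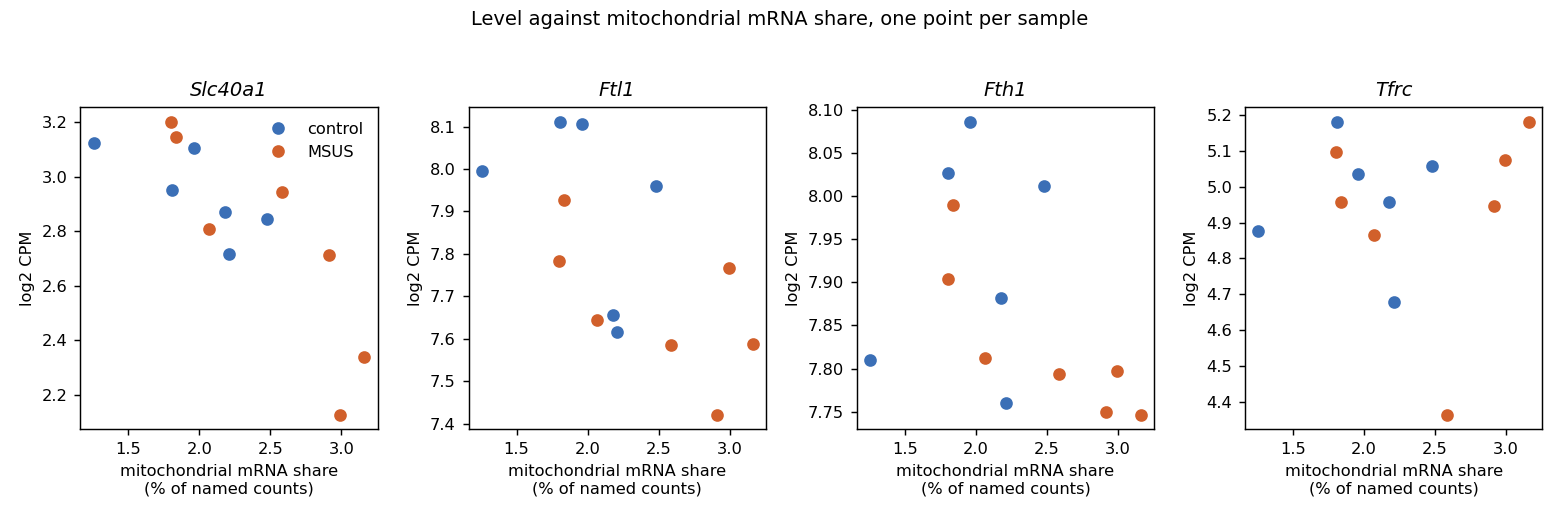
Level in log2 CPM (y axis) against the mitochondrial mRNA share in percent of named counts (x axis) for *Slc40a1*, *Ftl1*, *Fth1* and *Tfrc*, with 1 point per male, coloured by group. *Slc40a1* is lower where the share is larger in both groups (r = -0.75 in controls and -0.86 in MSUS), whereas *Fth1* has r = 0.21 in controls and -0.85 in MSUS, and *Tfrc* r = 0.02 over all samples.

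The slopes of the ferritin chains were also negative, and smaller in size. The slope of *Ftl1* was -0.19 per percentage point (SE 0.09, interval -0.39 to -0.0027, limma adjusted p = 0.527), and it turned to 0.02 with the *Malat1* level in the fit. For *Ftl1* r was -0.63 (permutation p = 0.0202, adjusted 0.273) and rho -0.70 (permutation p = 0.0100, adjusted 0.254), with r = -0.56 without the 2 farthest samples. Within groups r was -0.42 in controls (exact permutation p = 0.426) and -0.63 in MSUS (exact permutation p = 0.132), and neither passed the test alone. For *Fth1* r was -0.46 (permutation p = 0.109, adjusted 0.474) and rho -0.64 (permutation p = 0.0222, adjusted 0.308), with r = 0.21 among controls (exact permutation p = 0.715) and -0.85 among MSUS samples (exact permutation p = 0.00337). The difference between these within-group values was not tested.

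The other 6 genes had no slope with an interval off 0. Their slopes were 0.03 for *Tfrc*, 0.11 for *Tfr2*, 0.02 for *Slc11a2*, 0.57 for *Steap3*, 0.01 for *Ireb2* and 0.05 for *Aco1*. Over the 13 samples r was between -0.14 (*Ireb2*) and 0.41 (*Steap3*), and the lowest adjusted permutation p for Pearson's r among these 6 was 0.542. *Aco1* and *Slc11a2* had r of opposite sign in the groups, at -0.45 and -0.73 in controls and 0.69 and 0.47 in MSUS, each with an exact permutation p over 0.05 for r. For *Aco1* in controls rho was -0.89 (exact permutation p = 0.0333), while among MSUS samples it was 0.64 (exact permutation p = 0.139). The intervals of the slopes of *Slc11a2* and *Ireb2* were the narrowest, from -0.12 to 0.16 and from -0.11 to 0.14.

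The genes with a pattern most like 3 of the members are given as a description over the 13 samples, with no test. For *Slc40a1* they were *Akt2*, *Ngdn* and *Slc25a10*, with r of 0.94, 0.89 and 0.87. For *Fth1* they were *Slc39a13*, *Olfr735* and *Myl6b*, with r of 0.95, 0.89 and 0.89. *Tfrc* was most like *Zfp97*, *Tmem132a* and *Gm6559*, with r of 0.91, 0.91 and 0.90. Apart from the ferritin chains, the members varied together less closely. The next pairs were *Fth1* and *Slc40a1* (r = 0.55), *Slc11a2* and *Ireb2* (0.47), and *Ftl1* and *Slc40a1* (0.46). The lowest value was -0.35 for *Tfr2* and *Slc40a1*.

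The wider iron pathway was described by 3 lists: partners of the members in uptake, storage and systemic control, genes of iron-sulfur cluster assembly, and genes of heme synthesis and breakdown. Of the 42 partners found, 34 were tested, and 19 were higher and 15 lower in MSUS, with a median of 0.0089 on the log2 scale. At an unadjusted p under 0.05, 2 partners were higher (*Ftmt* and *Slc25a37*) and 1 was lower (*Pcbp2*), beside 5.42% of all genes in either direction, and none passed the adjusted test. *Hamp*, *Hamp2*, *Bmp6*, *Heph*, *Steap1*, *Steap4*, *Ltf* and *Lrp2* did not pass the filter on low counts. *Ftmt*, the ferritin of mitochondria, had 0.95 ± 0.59 log2 CPM (SD, n = 6) in controls and 1.67 ± 0.43 (SD, n = 7) in MSUS, at 10 to 50 counts per library. *Slc25a37*, mitoferrin, which carries iron into mitochondria, had 1.43 ± 0.48 and 2.03 ± 0.36. *Pcbp2*, an iron chaperone, had 8.14 ± 0.07 and 8.01 ± 0.07. The limma differences were 0.75 (SE 0.30), 0.61 (SE 0.25) and -0.13 (SE 0.05), each with an adjusted p of 0.878. *Trf*, transferrin itself, a known product of Sertoli cells, was abundant in both groups, at 7.35 ± 0.30 and 7.35 ± 0.08, and *Scara5*, a ferritin receptor, stood at 8.44 in controls and 8.36 in MSUS.

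The 27 genes of iron-sulfur cluster assembly were all tested, and 6 were higher and 21 lower in MSUS, with a median of -0.08 on the log2 scale. Of all 14421 genes, 7280 were lower, with a median of -0.0017. At an unadjusted p under 0.05, 2 of them were lower, beside 2.4% of all genes, and none was higher. These were *Glrx5*, which passes new clusters on, at 4.19 ± 0.30 log2 CPM (SD, n = 6) in controls and 3.85 ± 0.21 (SD, n = 7) in MSUS, and *Iba57*, a late factor of mitochondrial cluster assembly, at 3.60 ± 0.14 and 3.30 ± 0.18. Of the 22 heme genes, 8 were higher and 14 lower, with a median of -0.03. At an unadjusted p under 0.05, 1 heme gene was higher and 1 was lower, beside 5.42% of all genes in either direction. Here *Flvcr1*, a heme exporter, had 2.21 ± 0.37 in controls and 2.74 ± 0.24 in MSUS, and *Blvra*, which reduces biliverdin, had 5.10 ± 0.18 and 4.81 ± 0.22. The limma differences were -0.35 for *Glrx5*, -0.30 for *Iba57*, 0.54 for *Flvcr1* and -0.29 for *Blvra*, each with an adjusted p of 0.878. Genes of the 3 lists at an unadjusted p under 0.05 numbered 7 in all, of the 34, 27 and 22 tested. This stands beside 781 of all genes (5.42%). The list genes numbered 3 without control 9, 10 without control 22, 2 with the mitochondrial mRNA share and 1 with the *Malat1* level as covariate. Over all genes, the counts in the same fits were 540, 798, 403 and 401. *Alas2*, the red cell form of the first enzyme of heme synthesis, was at 7.88 ± 0.10 in controls and 7.70 ± 0.23 in MSUS. Of the globins found from its list, *Hba-a1* and *Hbb-bt* were at 0 in all libraries and *Hba-a2* had at most 6 counts. *Hmox1*, heme oxygenase, was at 6.25 in controls and 6.13 in MSUS.

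With the mitochondrial mRNA share in the fit, none of the genes of these lists passed the adjusted test for the share either. At an unadjusted p under 0.05, 3 partners were higher with the share (*Tmprss6*, *Slc39a14* and *Cubn*) and 1 lower (*Slc22a17*). Of the assembly genes, 1 was higher (*Isca1*) and 3 lower (*Nfs1*, *Nfu1* and *Nubp1*), and of the heme genes 2 were lower (*Alad* and *Pgrmc1*). These counts stand beside the 9.42% of all genes that reached the same p.

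**Figure D5:**
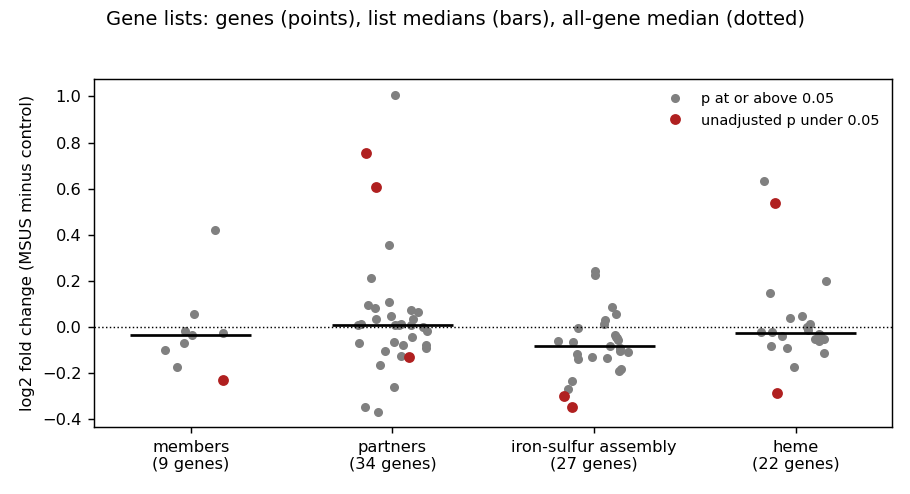
MSUS minus control difference on the log2 scale (y axis) for the 9 iron genes and for the 34 partner, 27 iron-sulfur assembly and 22 heme genes tested, with 1 point per gene, a bar at the median of each list and a dotted line at the median of all genes. The list medians are -0.04, 0.0089, -0.08 and -0.03, and none of the genes passed the adjusted test.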

How the data were processed

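Libraries of 6 control and 7 MSUS males were made with a stranded total RNA kit from 5 ng of Sertoli cell RNA each. The authors trimmed the reads with Trim Galore 0.6.5, assigned them with Salmon 1.1.0 to GENCODE vM23 and deposited estimated counts per gene without normalization. How transcripts were summed and named is not given in the sources used here. Of 54281 features, 27170 have no gene name, held 20.7% to 26.7% of the counts and were left out. Names in the table carry dots for hyphens.

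Estimated counts were rounded. As in the study, TMM factors (edgeR 4.0.16) and voom weights were used in limma 3.58.1 (R 4.3.3) as the main test of the 14421 genes kept by filterByExpr, with Benjamini-Hochberg adjustment over all of them. Alternatives were DESeq2 1.42.0, the quasi-likelihood test of edgeR, other scalings, filters and covariates, and leaving out each sample. A prior count of 2 was added for levels in log2 CPM. Correlations used 100000 permutations over samples (scipy 1.17.1), and exact ones within groups. IREs and lengths came from GENCODE vM21 transcripts (GRCm38), not the authors' vM23. The fits were tested on simulated data. The number of males limits the precision. *Steap3*, *Tfr2* and *Slc40a1* had low counts, and the part of these in their error was not tested.

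Groups came from the sample labels. The 9 genes and the lists were chosen with earlier results of these data known. Named genes were the 9 members, list genes with an unadjusted p under 0.05, and the 3 genes most like *Tfrc*, *Fth1* and *Slc40a1*; *Trf*, *Scara5*, *Alas2* and *Hmox1* were added after their values were seen.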

Additional observations from a re-analysis of the deposited data

Results flagged for a closer look

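*Tfrc* in MSUS replicate 1 lay far from the other MSUS samples. Its level there was 4.36 log2 CPM, the nearest MSUS sample had 4.86 and the highest 5.18, so the gap was 0.612 of the range, above the limit of 0.568 for 7 samples (Dixon). Chance marks about 1 in 20 groups, and 26 groups were searched, of which 1 was marked and 1.3 are given by chance.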

How the results depend on the processing

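None of the 9 genes passed the adjusted test under any alternative of either comparison. Of 811 alternative values for 44 results, 745 stayed the same, 37 reversed and 29 moved. An estimate stayed the same if it kept its direction and its side of the adjusted threshold. No estimate of a member or list gene passed that threshold in any fit, so for these only a change of direction could count. A correlation had only to keep its direction, and a count to stay within a fixed ratio of the main count. The number of genes called for the mitochondrial mRNA share was 8, against 15 with the share alone, 0 with mitochondrially encoded genes left out of the library size, 5 with the *Malat1* level as covariate, and 7 to 12 when 1 sample was left out. Genes with an unadjusted p under 0.05 between the groups numbered 781, against 1182 with no count filter, 403 with the share, 1205 with the elongated spermatid score and 401 with the *Malat1* level as covariate, and 537 to 1114 when 1 sample was left out. For the share there were 1359, against 576 with the *Malat1* level. The differences that reversed were small. *Tfr2* was at 0.03 by edgeR and by DESeq2 (0.026 and 0.030) and 0.12 with sample quality weights, which gave 0.016 for *Tfrc*. *Slc40a1* was at 0.080 with the share and 0.10 with the *Malat1* level, and *Slc11a2* at 0.0022 with the elongated spermatid score. Leaving out 1 sample gave -0.10 to 0.062 for *Tfrc*, -0.20 to 0.091 for *Tfr2* and -0.049 to 0.0080 for *Slc11a2*. Slopes on the share that reversed were -0.021 for *Ireb2* with the share alone, -0.0013 for *Tfrc* with the elongated spermatid score, and, with the *Malat1* level, -0.30 for *Tfr2*, 0.0068 for *Fth1*, 0.022 for *Ftl1*, -0.040 for *Slc11a2* and -0.016 for *Ireb2*. Leaving out 1 sample gave slopes of -0.048 to 0.095 for *Tfrc*, -0.089 to 0.33 for *Tfr2*, -0.012 to 0.054 for *Slc11a2* and -0.017 to 0.038 for *Ireb2*. Correlations with the share that reversed were -0.25 for *Tfrc* and 0.068 for *Ireb2* without the 2 farthest samples, rho of -0.11 for *Tfr2* and -0.033 for *Slc11a2*, and within controls 0.21 for *Fth1*, -0.73 for *Slc11a2*, -0.0033 for *Steap3*, 0.079 for *Ireb2* and -0.45 for *Aco1*, with 0.089 for *Ireb2* within MSUS. The causes were not tested. The slope of *Slc40a1* ran from -0.56 to -0.41, was -0.65 per percentage point of all counts in place of named counts, and had an unadjusted p under 0.05 in 18 of 19 alternatives, with adjusted p from 0.155 to 0.999. *Ftl1* had an unadjusted p under 0.05 between the groups in 19 of 24 alternatives. Without control 10, *Fth1* also reached it. List genes at that p numbered 7, against 1 to 8 in the fits with all samples and 3 to 10 when 1 sample was left out. With the *Malat1* level, *Glrx5* was at -0.20, *Blvra* at -0.13, *Fth1* at -0.04 and *Steap3* at 0.09, and with the share *Slc25a37* was at 0.35. The transcript lengths were tried after seeing the data. Adding ferritin pseudogenes gave no value, since 0 features carry such a name. No paired analysis was possible because the groups share no replicate numbers, and litters and cages of the males were not used here. Counts were under 100 per library for *Steap3*, *Tfr2* and *Slc40a1*.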
